A study of Mus musculus with 6 samples.

Results

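Cholesterol genes were followed by poly(A) RNA-seq of 6 NE-4C libraries. NE-4C is a line of neural stem cells from the brain of mice without p53. The list held 32 genes, chosen by name: 19 enzymes of sterol synthesis, 6 genes for the transcription factor SREBP2 and its control, 4 genes of sterol transport and storage, and 3 genes of the oxysterol receptor LXR and its targets. Of these, 31 were listed in both deposited tables, out of 14667 genes listed in at least 1. The level of Abca1 was not analysed here, and only its promoter enters, in the motif counts. All 31 passed the filter of a mean of at least 1 FPKM in each comparison. FPKM (fragments, scaled by transcript length and by the mapped fragments of the library) is a level per transcript length, so levels of different genes can be set side by side.

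Each of the 3 groups held 2 libraries. By their labels, all of them were knocked out for H3f3a, a gene for histone H3.3, and stably expressed an HA-tagged H3.3. Cbfa2t2_KO is labelled as expressing wild-type tagged H3.3 and as also knocked out for Cbfa2t2, which encodes a transcriptional corepressor, H3.3K27M expressed tagged H3.3 with the K27M substitution, and H3.3WT expressed wild-type tagged H3.3 with no further knockout. The series title ties CBFA2T2, described there as a reader of histone H3K27, to metabolic genes, which is the question these genes bear on. The labels do not state whether a line is 1 clone, nor that libraries of the same group were grown as separate cultures. The p-values therefore set a difference between groups only against the spread of these libraries within their groups, with the spread of other genes taken into account. That spread may be technical.

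Animal cells build cholesterol from acetyl-CoA. Acetyl-CoA is first turned into mevalonate and isoprenoid units, these are joined into squalene, and squalene is closed into lanosterol and trimmed into cholesterol through a chain of enzymes in the endoplasmic reticulum. The pathway is controlled by SREBP2, a membrane-bound transcription factor: when sterols run low, SCAP carries it to the Golgi, where a pair of proteases release the part that enters the nucleus and switches on the enzymes and the uptake genes. INSIG proteins hold SCAP and SREBP2 back when sterols are plentiful, and LXR, activated by oxysterols, switches on genes that export cholesterol. Neural cells make most of their own cholesterol, because lipoproteins of the blood do not cross into the brain.

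The table of Cbfa2t2_KO and H3.3WT held 14431 genes and that of H3.3K27M and H3.3WT held 14318, with identical H3.3WT values for all 14082 shared genes. Summed FPKM was 363654 to 419389 per library, and log2 values of the 2 libraries of a group had a Pearson correlation of 0.984 to 0.988 across genes, which are not independent replicates. The tables hold no counts, so read depth is unknown. The H3.3K27M columns are headed by the letter M alone, and this letter is the ground for assigning them. Cbfa2t2 RNA stood at 1.02 and 0.769 FPKM in Cbfa2t2_KO, 2.02 and 0.855 FPKM in H3.3K27M and 1.38 and 1.35 FPKM in H3.3WT, and its difference between Cbfa2t2_KO and H3.3WT did not pass the test (log2 change -0.32 ± 0.16, adjusted p = 0.153). H3f3a RNA was listed in every library, at 82.1 and 66.3 FPKM in Cbfa2t2_KO, 77.3 and 66.8 FPKM in H3.3K27M and 131 and 181 FPKM in H3.3WT, and was lower in both lines than in H3.3WT (-1.05 ± 0.19, adjusted p = 0.0050 in Cbfa2t2_KO and -1.09 ± 0.20, adjusted p = 0.0071 in H3.3K27M). The labels state no edit site for either gene, so these levels do not check the knockouts, and whether reads of the tagged H3.3 count toward H3f3a was not tested.

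Markers of cell types differed between the groups in both directions. Of 12 markers of neural stem cells and progenitors, 10 were listed, 8 of them were tested, and the 10 summed to 101 and 86.3 FPKM in Cbfa2t2_KO, 117 and 123 FPKM in H3.3K27M and 118 and 131 FPKM in H3.3WT. Nes and Sox9 fell and Vim and Prom1 rose in both lines, Sox2 and Hes1 fell in Cbfa2t2_KO, Msi1 fell in H3.3K27M, and Cdh2 passed in neither. Pax6 and Hes5 stayed under 1 FPKM, and Sox1 and Fabp7 were not listed. Markers of epithelium moved with the groups: of 6, 5 were listed and 4 tested, their summed level was 215 and 200 FPKM in Cbfa2t2_KO, 184 and 184 FPKM in H3.3K27M and 122 and 94.5 FPKM in H3.3WT, and Krt8, Krt18 and Epcam were higher in both lines than in H3.3WT, while Cdh1 passed in neither. The 4 listed markers of neurons summed to 134 and 150 FPKM in Cbfa2t2_KO, 76.8 and 81.4 FPKM in H3.3K27M and 77.6 and 76.5 FPKM in H3.3WT, with a rise of Tubb3 in Cbfa2t2_KO and a fall of Rbfox3 in H3.3K27M. Of the 3 listed astrocyte markers, Aldh1l1 and Aldoc rose and Slc1a3 fell in both lines, and Gfap and Aqp4 were not listed. Of 6 mesenchymal markers, Col3a1 rose and Pdgfrb fell in both lines, and in Cbfa2t2_KO Col1a1 also rose and Acta2 also fell. The oligodendrocyte marker Cnp rose in Cbfa2t2_KO, endothelial markers stayed under 1 FPKM or were not listed, and no marker of microglia was listed. Their part in the results below was not tested. In bulk RNA, fewer cells of a type and less RNA per cell cannot be told apart.

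The summed RNA of the cholesterol synthesis enzymes was higher in Cbfa2t2_KO and in H3.3K27M than in H3.3WT. The 19 enzymes came to 530 and 523 FPKM in the Cbfa2t2_KO libraries and 670 and 698 FPKM in the H3.3K27M libraries, against 333 and 287 FPKM in the H3.3WT libraries. The 3 groups did not overlap in this sum, and H3.3K27M stood above Cbfa2t2_KO. Against H3.3WT, 10 of the 19 enzymes rose in Cbfa2t2_KO and 13 of the 19 rose in H3.3K27M, where 13.1% and 8.42% of all genes tested rose. No enzyme fell by limma after adjustment in either line, while at an unadjusted p under 0.05 there was 1 lower enzyme in Cbfa2t2_KO, Ggps1, and 0 in H3.3K27M. Among the control and receptor genes, Srebf2 itself did not pass the test in either line, and the activating protease gene Mbtps1 and the LXR gene Nr1h2 fell in both.

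In Cbfa2t2_KO against H3.3WT, 14 of the 31 genes rose, 45.2% of them, where 13.1% of all 11626 genes tested rose. Another 3 fell, 9.68%, where 21.5% of all genes tested fell. The other 14 did not pass the test. The median log2 change of the 31 was 0.40, against -0.11 over all genes tested. In 19 of the genes both Cbfa2t2_KO libraries lay above both H3.3WT libraries, where 28.5% of all genes tested did, and in 6 genes both lay below, where 42.0% of all genes did. Leaving out Cbfa2t2_KO replicate 1 lowered the number of genes that rose to 8. Changes are from limma on log2(FPKM + 1), on which changes of low genes are understated, with p-values adjusted over all genes tested and a threshold of 0.05. A permutation test of 2 libraries against 2 cannot give a p below 0.333. Where a library was left out, fewer of all genes tested passed as well. Without Cbfa2t2_KO replicate 1, the median log2 change of the 31 was 0.29, against -0.15 over all genes tested.

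In H3.3K27M against H3.3WT, 15 of the 31 genes rose, 48.4% of them, where 8.42% of all 11623 genes tested rose. Another 2 fell, 6.45%, where 17.8% of all genes tested fell, and 14 did not pass. The median log2 change of the 31 was 0.58, against -0.12 over all genes tested. Both H3.3K27M libraries lay above both H3.3WT libraries in 21 genes, where 25.1% of all genes tested did, and below them in 3, where 41.3% of all genes did. Leaving out H3.3WT replicate 2 lowered the number of genes that rose to 8, and the number that fell to 0. Without H3.3K27M replicate 2 or H3.3WT replicate 1, the number that fell was 1. In each of these fits, fewer of all genes tested passed too. The median log2 change of the 31 was 0.63 without H3.3WT replicate 2, against -0.09 over all genes tested. It was 0.62 against -0.09 without H3.3K27M replicate 2, and 0.56 against -0.14 without H3.3WT replicate 1. Both comparisons use the same H3.3WT libraries, so a chance shift in those would appear in both. Median-of-ratios scaling moved the median change of all genes to 0.0005 in Cbfa2t2_KO and 0.0050 in H3.3K27M, and with it the share of rises among all calls was 50.8% in place of 37.9% in Cbfa2t2_KO and 49% in place of 32.1% in H3.3K27M. On that scale 15 of the 31 genes rose and 3 fell in Cbfa2t2_KO, where 17.9% of all genes tested rose and 17.3% fell. In H3.3K27M, 17 rose and 2 fell, where 11.8% of all genes tested rose and 12.3% fell.

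**Figure D1:**
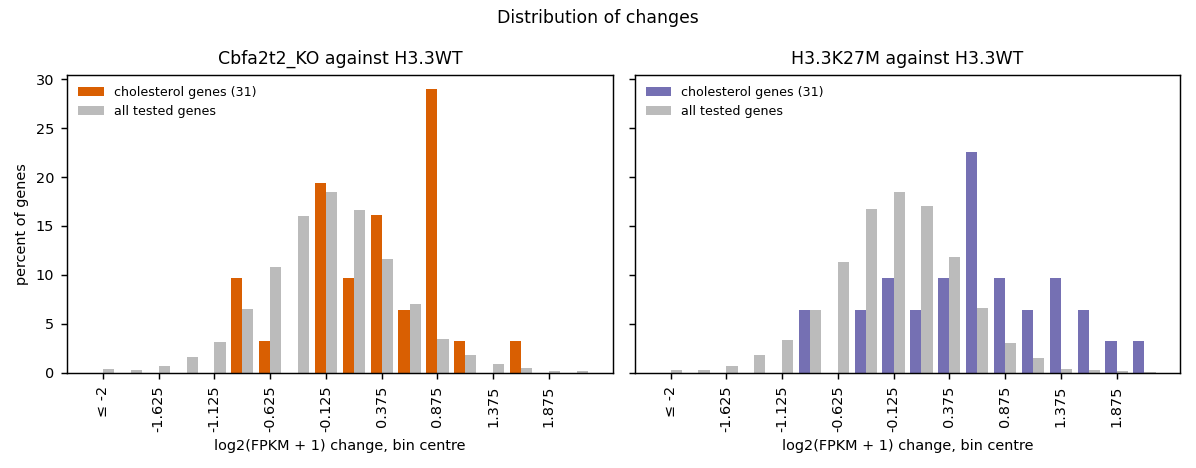
Distribution of log2 changes, in bins along the horizontal axis, as percent of genes on the vertical axis, for the 31 cholesterol genes and for all genes tested, with Cbfa2t2_KO and H3.3K27M, each against H3.3WT, in separate panels. The cholesterol genes lie to the right of all genes in both lines against H3.3WT, with medians of 0.40 in Cbfa2t2_KO and 0.58 in H3.3K27M against -0.11 and -0.12 over all genes.

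Set side by side, 11 genes rose in both lines: Acat2, Hmgcs1, Mvd, Fdps, Fdft1, Cyp51, Nsdhl, Ebp, Dhcr7, Insig1 and Stard4. Mbtps1 and Nr1h2 fell in both. The share of all genes tested that rose or fell in both lines was not computed, so these counts have no background. Across genes, the Pearson correlation was 0.967 to 0.978 between Cbfa2t2_KO and H3.3K27M libraries. Either line against H3.3WT gave 0.945 to 0.957. Mvk, Npc2 and Soat1 passed the test in Cbfa2t2_KO and not in H3.3K27M, and Sqle, Lss, Msmo1 and Sc5d passed in H3.3K27M and not in Cbfa2t2_KO. The direct test between the lines, given further on, was passed by Sqle, Msmo1 and Sc5d of these 7. Mbtps2 fell in Cbfa2t2_KO and did not pass in H3.3K27M, and the direct test between the lines was not passed. The remaining 10 genes passed in neither line.

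**Figure D2:**
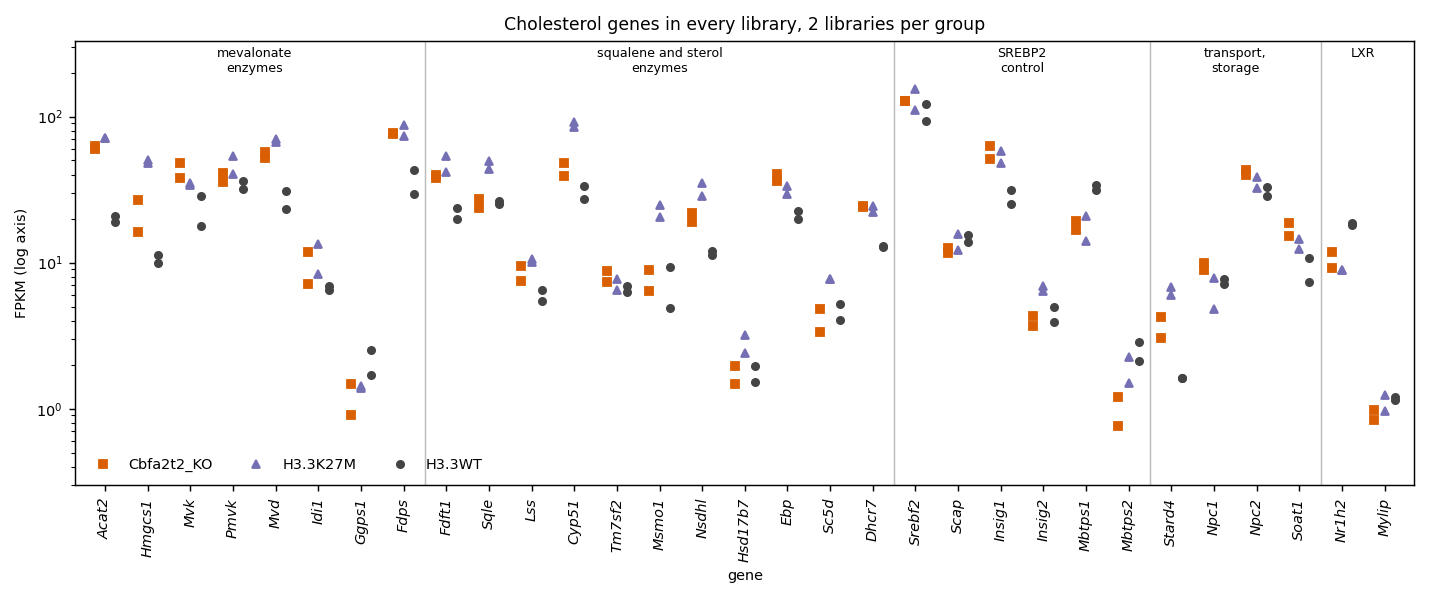
Level of each of the 31 cholesterol genes in each library, on a log axis in FPKM, with genes grouped by role and 1 point per library for Cbfa2t2_KO, H3.3K27M and H3.3WT. Acat2 shows a wide gap, with the Cbfa2t2_KO and H3.3K27M libraries at 60.0 to 71.3 FPKM and the H3.3WT libraries at 20.7 and 19.0 FPKM.

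Promoter sequences are shown for the 3 genes with the largest changes in H3.3K27M against H3.3WT, because SREBP2 and its partner NF-Y are known to act near the start of sterol genes. RefSeq windows (GRCm38.p6) of 300 bases, 250 before to 50 after a transcription start, were found for 27 of the 32 genes. They were searched on both strands for the sterol regulatory element core TCACNCCAC, the CCAAT box of NF-Y and the E-box CACGTG, and no match of one overlapped a match of another. The sterol core was in a window of 1 of the 27 genes (3.7%), against 1.44% of 27025 genes. The CCAAT box was in 21 of the 27 (77.8%), against 41.1% of all genes, and the E-box in 6 of the 27 (22.2%), against 8.09%. Genes with several windows were counted once, with more chances to match. The windows below run 5′ to 3′ along the gene and hold the 250 bases before the start, with capitals for the sterol core and for CCAAT or its reverse complement ATTGG. Hmgcs1 (chr13:119690101-119690350, forward strand) was the gene with the sterol core, 137 to 129 bases before its start, and has 3 CCAAT boxes in the printed bases. Msmo1 (chr8:64733579-64733828, reverse strand) has 3 CCAAT boxes and no sterol core. Acat2 (chr17:12960726-12960975, reverse strand) holds none of these motifs. Msmo1 and Acat2 were picked after their values were seen. A match of letters is a description and not a bound site, and the lack of one says only that these letters are not in this window.
Hmgcs1: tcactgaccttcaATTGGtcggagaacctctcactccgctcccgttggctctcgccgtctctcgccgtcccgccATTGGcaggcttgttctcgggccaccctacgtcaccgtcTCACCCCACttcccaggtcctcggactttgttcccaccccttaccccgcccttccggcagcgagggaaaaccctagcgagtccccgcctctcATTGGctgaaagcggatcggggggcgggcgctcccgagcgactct
Msmo1: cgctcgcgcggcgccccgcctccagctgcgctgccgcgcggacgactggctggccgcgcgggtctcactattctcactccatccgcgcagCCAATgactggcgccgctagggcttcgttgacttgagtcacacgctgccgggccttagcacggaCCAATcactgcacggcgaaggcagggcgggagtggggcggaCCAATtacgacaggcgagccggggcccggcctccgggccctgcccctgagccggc
Acat2: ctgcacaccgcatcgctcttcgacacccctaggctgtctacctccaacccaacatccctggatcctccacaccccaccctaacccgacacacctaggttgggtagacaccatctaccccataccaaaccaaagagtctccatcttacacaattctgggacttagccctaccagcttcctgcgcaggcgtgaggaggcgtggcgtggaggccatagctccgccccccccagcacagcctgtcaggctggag

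The early, mevalonate steps were the first group of enzymes. Of the 8 genes, 5 rose and 0 fell in Cbfa2t2_KO, and 4 rose and 0 fell in H3.3K27M. Rises were 62.5% of them in Cbfa2t2_KO and 50% in H3.3K27M, against 13.1% and 8.42% of all genes tested. Of all genes tested, 21.5% and 17.8% fell. At an unadjusted p under 0.05, 1 gene was lower in Cbfa2t2_KO and 0 in H3.3K27M. Acat2, the cytosolic thiolase that joins acetyl-CoA units at the entry of the pathway, was measured at 60.0 and 62.5 FPKM in Cbfa2t2_KO, 71.3 and 71.1 FPKM in H3.3K27M and 20.7 and 19.0 FPKM in H3.3WT. Both lines were far above H3.3WT and the libraries of each group lay close together. Its log2 change was 1.58 ± 0.13, adjusted p = 0.00043 in Cbfa2t2_KO, with a ratio of means of 3.09, and 1.79 ± 0.16, adjusted p = 0.0010 in H3.3K27M, with a ratio of 3.59. The gene lies at chr17:12942890-12960747, reverse strand (GRCm38). Transcripts of Acat2 and its neighbour Acat3 are 97.7% identical over 1477 aligned bases, so reads may be split between them. A transcript of Tcp1, a chaperonin subunit gene, also aligned to Acat2 over 445 bases at 98.7% identity. Acat3 averaged 8.34 FPKM in Cbfa2t2_KO, 6.34 FPKM in H3.3K27M and 2.08 FPKM in H3.3WT, and Tcp1 averaged 70.9 FPKM in Cbfa2t2_KO, 97.9 FPKM in H3.3K27M and 52.0 FPKM in H3.3WT. The level of Acat2 is therefore uncertain.

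Hmgcs1, the synthase that makes HMG-CoA, stood at 26.96 and 16.1 FPKM in Cbfa2t2_KO, 47.9 and 50.3 FPKM in H3.3K27M and 9.95 and 11.3 FPKM in H3.3WT. The order was H3.3K27M above Cbfa2t2_KO above H3.3WT with no overlap, and the 2 Cbfa2t2_KO libraries differed widely from each other. Hmgcs1, whose promoter holds the sterol core shown above, lies at chr13:119690379-119708260, forward strand. Its log2 change was 0.91 ± 0.23, adjusted p = 0.020 in Cbfa2t2_KO, a ratio of means of 2.02, and 2.11 ± 0.17, adjusted p = 0.00078 in H3.3K27M, a ratio of 4.61 and the largest change of the 31 genes in that comparison. The call in Cbfa2t2_KO did not hold without H3.3WT replicate 1 (adjusted p = 0.061) or Cbfa2t2_KO replicate 1 (adjusted p = 0.085).

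Mevalonate is then phosphorylated by mevalonate kinase (Mvk) and phosphomevalonate kinase (Pmvk), and decarboxylated by Mvd to the isoprenoid unit. Mvk stood at 37.8 and 48.1 FPKM in Cbfa2t2_KO, 33.9 and 35.1 FPKM in H3.3K27M and 28.7 and 17.9 FPKM in H3.3WT. All libraries of both lines lay above H3.3WT, but the H3.3WT libraries were far apart, and the log2 change of Mvk (chr5:114444269-114460591, forward strand) passed in Cbfa2t2_KO (0.88 ± 0.23, adjusted p = 0.020) and not in H3.3K27M (0.58 ± 0.22, adjusted p = 0.086). The call did not hold without H3.3WT replicate 2 (adjusted p = 0.085) or Cbfa2t2_KO replicate 2 (adjusted p = 0.139). Mvd stood at 52.0 and 57.4 FPKM in Cbfa2t2_KO, 67.1 and 70.1 FPKM in H3.3K27M and 31.1 and 23.4 FPKM in H3.3WT, in the order H3.3K27M, Cbfa2t2_KO, H3.3WT with no overlap. Mvd (chr8:122433601-122443422, reverse strand) changed by 0.99 ± 0.17, adjusted p = 0.0040 in Cbfa2t2_KO and by 1.31 ± 0.18, adjusted p = 0.0027 in H3.3K27M on the log2 scale.

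Fdps, which builds farnesyl diphosphate, the last common precursor of sterols and of prenyl groups on proteins, was the most abundant enzyme of the group in Cbfa2t2_KO, H3.3K27M and H3.3WT alike. It had 76.4 and 77.0 FPKM in Cbfa2t2_KO, 73.5 and 87.9 FPKM in H3.3K27M and 43.2 and 29.5 FPKM in H3.3WT. Cbfa2t2_KO and H3.3K27M overlapped, and both lay above both H3.3WT libraries. The log2 change was 1.08 ± 0.18, adjusted p = 0.0043 in Cbfa2t2_KO and 1.15 ± 0.21, adjusted p = 0.0071 in H3.3K27M (gene at chr3:89093588-89101959, reverse strand). A small unnamed gene model on the same strand, Gm43738, overlaps Fdps and was listed at 0 FPKM on average in Cbfa2t2_KO, 3.36 FPKM in H3.3K27M and 2.58 FPKM in H3.3WT.

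The other mevalonate genes, Pmvk, Idi1 (isopentenyl diphosphate isomerase) and Ggps1 (geranylgeranyl diphosphate synthase, which leads to prenyl groups and away from sterols), passed the test in neither line. Their log2 changes were 0.16 ± 0.15, 0.40 ± 0.23 and -0.51 ± 0.21 in Cbfa2t2_KO and 0.45 ± 0.19, 0.59 ± 0.23 and -0.36 ± 0.20 in H3.3K27M, in that order of genes. Ggps1 was the low one of the group, at 1.47 and 0.903 FPKM in Cbfa2t2_KO, 1.42 and 1.38 FPKM in H3.3K27M and 1.70 and 2.54 FPKM in H3.3WT. Idi1 shares 684 aligned bases at 100% identity with the gene model Gm13502, which was listed at 2.42 to 5.14 FPKM as group means, so its level is uncertain.

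The steps from squalene to cholesterol were the second group of enzymes. Of the 11 genes, 5 rose and 0 fell in Cbfa2t2_KO, and 9 rose and 0 fell in H3.3K27M. Rises were 45.5% of them in Cbfa2t2_KO and 81.8% in H3.3K27M, against 13.1% and 8.42% of all genes tested. Of all genes tested, 21.5% and 17.8% fell. At an unadjusted p under 0.05, 0 of the 11 were lower in either line. Fdft1, squalene synthase, the first enzyme committed to sterols, stood at 38.1 and 39.5 FPKM in Cbfa2t2_KO, 53.9 and 41.8 FPKM in H3.3K27M and 23.6 and 20.0 FPKM in H3.3WT. Both lines lay above H3.3WT and Cbfa2t2_KO lay below H3.3K27M. The log2 change of Fdft1 (chr14:63145150-63179578, reverse strand) was 0.81 ± 0.14, adjusted p = 0.0051 in Cbfa2t2_KO and 1.09 ± 0.19, adjusted p = 0.0057 in H3.3K27M, and the H3.3K27M call did not hold without H3.3WT replicate 2 (adjusted p = 0.053). Fdft1 overlaps Ctsb on the opposite strand, and the labels do not state whether counting used strand. Ctsb averaged 35.0 FPKM in Cbfa2t2_KO, 25.1 FPKM in H3.3K27M and 22.7 FPKM in H3.3WT. Where strand was not used, reads of the shared stretch, 774 aligned bases, cannot be told apart. The gene model Gm6781, which was not listed, is 97.4% identical to Fdft1 over 1249 aligned bases.

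Sqle, squalene epoxidase, a rate-limiting step after mevalonate, separated the lines. It stood at 27.2 and 23.6 FPKM in Cbfa2t2_KO, 49.9 and 43.6 FPKM in H3.3K27M and 26.3 and 25.1 FPKM in H3.3WT. Cbfa2t2_KO overlapped H3.3WT, and both H3.3K27M libraries lay well above. The log2 change of Sqle (chr15:59315077-59331192, forward strand) was -0.02 ± 0.14, adjusted p = 0.926 in Cbfa2t2_KO and 0.84 ± 0.16, adjusted p = 0.0087 in H3.3K27M. The H3.3K27M call did not hold without H3.3WT replicate 1 (adjusted p = 0.055) or H3.3WT replicate 2 (adjusted p = 0.072). Lss, which closes squalene epoxide into lanosterol, was lower in level, at 9.43 and 7.54 FPKM in Cbfa2t2_KO, 10.1 and 10.5 FPKM in H3.3K27M and 6.50 and 5.48 FPKM in H3.3WT. The 3 groups did not overlap, and the change of Lss (chr10:76531588-76557138, forward strand) passed in H3.3K27M (0.70 ± 0.18, adjusted p = 0.026) but not in Cbfa2t2_KO (0.44 ± 0.18, adjusted p = 0.099). The Lss call did not hold without each of the 4 libraries in turn (adjusted p = 0.052 to 0.168).

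Cyp51, the demethylase that starts the trimming of lanosterol, stood at 48.3 and 39.0 FPKM in Cbfa2t2_KO, 84.9 and 91.7 FPKM in H3.3K27M and 33.7 and 27.1 FPKM in H3.3WT. The groups did not overlap, in the order H3.3K27M, Cbfa2t2_KO, H3.3WT. The log2 change of Cyp51 (chr5:4081145-4104746, reverse strand) was 1.51 ± 0.17, adjusted p = 0.0016 in H3.3K27M, a ratio of means of 2.90. In Cbfa2t2_KO it was 0.51 ± 0.17, adjusted p = 0.048, just inside the threshold. That smaller call did not hold without H3.3WT replicate 2 (adjusted p = 0.219), Cbfa2t2_KO replicate 1 (adjusted p = 0.226) or Cbfa2t2_KO replicate 2 (adjusted p = 0.074), nor with a pseudocount of 0.1, with no filter, without the variance trend or in the fit of all 6 libraries (adjusted p = 0.050 to 0.068).

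Msmo1 and Nsdhl act in turn to strip methyl groups from the sterol ring, as oxidase and as decarboxylating dehydrogenase. Msmo1, whose CCAAT-bearing window is shown above, stood at 8.89 and 6.38 FPKM in Cbfa2t2_KO, 20.5 and 24.9 FPKM in H3.3K27M and 4.89 and 9.34 FPKM in H3.3WT. The Cbfa2t2_KO libraries lay between the H3.3WT libraries, which were far apart, and both H3.3K27M libraries lay above all others. Msmo1 (chr8:64718139-64733792, reverse strand) changed by 1.60 ± 0.27, adjusted p = 0.0050 in H3.3K27M, a ratio of means of 3.19, and had 0.13 ± 0.28, adjusted p = 0.742 in Cbfa2t2_KO. Nsdhl stood at 21.8 and 18.9 FPKM in Cbfa2t2_KO, 35.1 and 28.5 FPKM in H3.3K27M and 12.1 and 11.4 FPKM in H3.3WT, 3 groups without overlap. Nsdhl, an X-linked gene at chrX:72918557-72958514, forward strand, changed by 0.74 ± 0.15, adjusted p = 0.0086 in Cbfa2t2_KO and by 1.36 ± 0.18, adjusted p = 0.0022 in H3.3K27M, and the first of these calls did not hold without Cbfa2t2_KO replicate 1 (adjusted p = 0.052).

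Of the last enzymes, Ebp moves a double bond in the sterol ring, Sc5d adds one, and Dhcr7 removes one. Ebp stood at 36.4 and 40.1 FPKM in Cbfa2t2_KO, 29.5 and 33.5 FPKM in H3.3K27M and 22.5 and 20.0 FPKM in H3.3WT, with Cbfa2t2_KO highest and no overlap between the groups. Ebp (chrX:8185329-8193512, reverse strand) changed by 0.82 ± 0.14, adjusted p = 0.0046 in Cbfa2t2_KO and by 0.55 ± 0.17, adjusted p = 0.044 in H3.3K27M. The H3.3K27M call of Ebp did not hold without each of the 4 libraries in turn (adjusted p = 0.051 to 0.243), nor with no filter or without the variance trend (adjusted p = 0.054 to 0.056). Sc5d stood at 4.83 and 3.37 FPKM in Cbfa2t2_KO, 7.78 and 7.71 FPKM in H3.3K27M and 4.07 and 5.24 FPKM in H3.3WT. Cbfa2t2_KO overlapped H3.3WT and H3.3K27M lay above both. The log2 change of Sc5d (chr9:42251595-42264256, reverse strand) was 0.64 ± 0.19, adjusted p = 0.043 in H3.3K27M and -0.16 ± 0.21, adjusted p = 0.587 in Cbfa2t2_KO, and the H3.3K27M call did not hold without each of the 4 libraries in turn (adjusted p = 0.088 to 0.241). Dhcr7, which makes cholesterol from its immediate precursor, stood at 23.9 and 24.4 FPKM in Cbfa2t2_KO, 24.3 and 22.2 FPKM in H3.3K27M and 13.1 and 12.9 FPKM in H3.3WT. The libraries of each group lay close together, both lines were well above H3.3WT and the lines overlapped each other. Dhcr7 (chr7:143823145-143848410, forward strand) changed by 0.85 ± 0.14, adjusted p = 0.0036 in Cbfa2t2_KO and by 0.80 ± 0.16, adjusted p = 0.011 in H3.3K27M. The Dhcr7 call in H3.3K27M did not hold without H3.3WT replicate 1 (adjusted p = 0.067) or H3.3WT replicate 2 (adjusted p = 0.077).

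Tm7sf2, a sterol reductase, and Hsd17b7, the ketosteroid reductase that follows Nsdhl, passed in neither line. Tm7sf2 ran from 6.33 to 8.75 FPKM and Hsd17b7 from 1.48 to 3.22 FPKM over the 6 libraries. Tm7sf2 overlaps Vps51 on the same strand, so its level is uncertain. The log2 changes of Tm7sf2 and Hsd17b7 were 0.24 ± 0.17 and -0.01 ± 0.18 in Cbfa2t2_KO, and 0.09 ± 0.19 and 0.47 ± 0.20 in H3.3K27M.

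**Figure D3:**
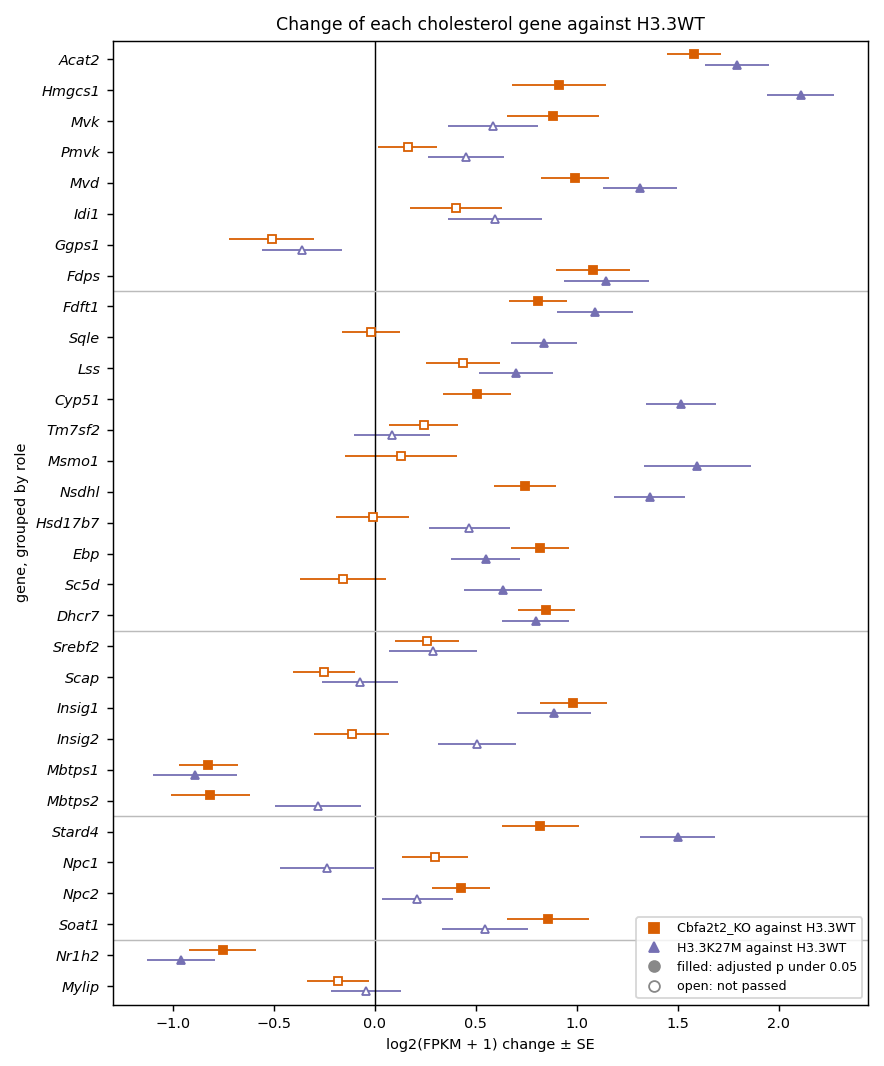
Log2 change of each of the 31 cholesterol genes against H3.3WT on the horizontal axis, with Cbfa2t2_KO and H3.3K27M in separate symbols, filled for an adjusted p under 0.05, bars of 1 SE and genes in rows grouped by role. Acat2 leads in Cbfa2t2_KO at 1.58 and Hmgcs1 in H3.3K27M at 2.11, while Mbtps1 and Nr1h2 lie left of 0 in both lines.

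The next genes encode SREBP2 and its control. Of the 6 genes, 1 rose and 2 fell in Cbfa2t2_KO, where 13.1% of all genes tested rose and 21.5% fell. In H3.3K27M, 1 rose and 1 fell, 16.7% each, where 8.42% of all genes tested rose and 17.8% fell, so the falls sit near that share. Srebf2, the gene for SREBP2, was the most abundant of all 31 genes in every group, at 127 and 128 FPKM in Cbfa2t2_KO, 153 and 111 FPKM in H3.3K27M and 121 and 93.5 FPKM in H3.3WT. Both Cbfa2t2_KO libraries lay above both H3.3WT libraries and H3.3K27M overlapped both other groups, and the log2 change passed in neither line (0.26 ± 0.16, adjusted p = 0.236 in Cbfa2t2_KO and 0.29 ± 0.22, adjusted p = 0.347 in H3.3K27M). Scap, the escort of SREBP2, passed in neither line either, with -0.25 ± 0.15, adjusted p = 0.239 in Cbfa2t2_KO and -0.07 ± 0.19, adjusted p = 0.799 in H3.3K27M. RNA levels do not measure how much SREBP2 was processed.

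Insig1, the retention protein whose own gene is a target of SREBP2, stood at 62.6 and 50.9 FPKM in Cbfa2t2_KO, 57.8 and 48.2 FPKM in H3.3K27M and 25.3 and 31.2 FPKM in H3.3WT. Every library of both lines lay above both H3.3WT libraries. Insig1 (chr5:28071363-28078662, forward strand) changed by 0.98 ± 0.17, adjusted p = 0.0040 in Cbfa2t2_KO and by 0.89 ± 0.18, adjusted p = 0.010 in H3.3K27M. The Insig1 call in H3.3K27M did not hold without H3.3WT replicate 1 (adjusted p = 0.090). Insig2, its relative, was far lower at 3.69 to 6.92 FPKM over the 6 libraries and passed in neither line (-0.11 ± 0.19 in Cbfa2t2_KO and 0.51 ± 0.19 in H3.3K27M).

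Of the genes for the Golgi proteases that release SREBP2, Mbtps1 fell in both lines. Mbtps1, which makes the first cut, stood at 16.7 and 19.2 FPKM in Cbfa2t2_KO, 20.7 and 14.0 FPKM in H3.3K27M and 31.2 and 33.8 FPKM in H3.3WT. No library of either line reached the H3.3WT libraries. Mbtps1 (chr8:119508156-119558735, reverse strand) changed by -0.82 ± 0.15, adjusted p = 0.0048 in Cbfa2t2_KO and by -0.89 ± 0.21, adjusted p = 0.016 in H3.3K27M, and the H3.3K27M call did not hold without H3.3K27M replicate 2 (adjusted p = 0.066), H3.3WT replicate 1 (adjusted p = 0.070) or H3.3WT replicate 2 (adjusted p = 0.103). Mbtps2, which makes the cut after it, was much lower, at 1.21 and 0.761 FPKM in Cbfa2t2_KO, 2.27 and 1.49 FPKM in H3.3K27M and 2.12 and 2.85 FPKM in H3.3WT. It fell in Cbfa2t2_KO (-0.81 ± 0.19, adjusted p = 0.015) and did not pass in H3.3K27M (-0.28 ± 0.21, adjusted p = 0.354). The Mbtps2 call did not hold without H3.3WT replicate 2 (adjusted p = 0.088) or Cbfa2t2_KO replicate 2 (adjusted p = 0.095).

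Among the 4 transport and storage genes, 3 rose in Cbfa2t2_KO and 1 rose in H3.3K27M, 75% and 25% of them. Over all genes tested, 13.1% rose and 21.5% fell in Cbfa2t2_KO, and 8.42% rose and 17.8% fell in H3.3K27M. By limma 0 of the 4 fell in either line, also at an unadjusted p under 0.05. Stard4, a soluble carrier that moves sterol between membranes, stood at 4.27 and 3.05 FPKM in Cbfa2t2_KO, 6.86 and 5.98 FPKM in H3.3K27M and 1.62 and 1.62 FPKM in H3.3WT. The groups did not overlap, in the order H3.3K27M, Cbfa2t2_KO, H3.3WT. It changed by 0.82 ± 0.19, adjusted p = 0.014 in Cbfa2t2_KO and by 1.50 ± 0.19, adjusted p = 0.0019 in H3.3K27M, a ratio of means of 3.96. The Cbfa2t2_KO call of Stard4 did not hold without H3.3WT replicate 2 (adjusted p = 0.060) or Cbfa2t2_KO replicate 1 (adjusted p = 0.063).

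Soat1, which esterifies cholesterol for storage, stood at 18.7 and 15.3 FPKM in Cbfa2t2_KO, 14.5 and 12.4 FPKM in H3.3K27M and 7.36 and 10.7 FPKM in H3.3WT. All libraries of both lines were above H3.3WT, and the change of Soat1 (chr1:156424525-156474331, reverse strand) passed in Cbfa2t2_KO (0.86 ± 0.20, adjusted p = 0.015) but not in H3.3K27M (0.54 ± 0.21, adjusted p = 0.091). The Soat1 call did not hold without H3.3WT replicate 1 (adjusted p = 0.058) or Cbfa2t2_KO replicate 1 (adjusted p = 0.083). Npc1 and Npc2 hand cholesterol out of late endosomes and lysosomes. Npc2 stood at 40.0 and 42.8 FPKM in Cbfa2t2_KO, 32.4 and 38.8 FPKM in H3.3K27M and 28.4 and 32.7 FPKM in H3.3WT, where the H3.3K27M and H3.3WT libraries overlapped. Npc2 rose in Cbfa2t2_KO at the edge of the threshold (0.43 ± 0.14, adjusted p = 0.049), a call that did not hold without each of the 4 libraries in turn (adjusted p = 0.067 to 0.195) nor with a pseudocount of 0.1, no filter, no variance trend or the fit of all 6 libraries (adjusted p = 0.052 to 0.073). In H3.3K27M, Npc2 had 0.21 ± 0.18, adjusted p = 0.398. Npc1 ran from 4.81 to 9.98 FPKM and passed in neither line (0.30 ± 0.16 in Cbfa2t2_KO and -0.24 ± 0.23 in H3.3K27M). Npc1 overlaps Rmc1 on the opposite strand, so its level is uncertain where strand was not used.

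Nr1h2 encodes LXR beta, the widely expressed oxysterol receptor. It stood at 9.24 and 11.8 FPKM in Cbfa2t2_KO, 8.92 and 8.94 FPKM in H3.3K27M and 18.0 and 18.6 FPKM in H3.3WT. Both lines lay below H3.3WT with no overlap. Nr1h2 (chr7:44549616-44553951, reverse strand) changed by -0.75 ± 0.17, adjusted p = 0.012 in Cbfa2t2_KO and by -0.96 ± 0.17, adjusted p = 0.0058 in H3.3K27M. The calls did not hold without Cbfa2t2_KO replicate 1 (adjusted p = 0.062) in Cbfa2t2_KO and without H3.3WT replicate 2 (adjusted p = 0.052) in H3.3K27M. Mylip, an LXR target that limits lipoprotein uptake, was the lowest of the 31 genes in each group, at 0.982 and 0.841 FPKM in Cbfa2t2_KO, 1.25 and 0.962 FPKM in H3.3K27M and 1.14 and 1.20 FPKM in H3.3WT, just above the filter, and passed in neither line.

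H3.3K27M was also set directly against Cbfa2t2_KO, in a fit of all 6 libraries, to ask where the lines differ. Here 5 of the 31 genes were higher in H3.3K27M, 16.1% of them, where 3.12% of all 11601 genes tested were higher. By limma 0 were lower, where 4.68% of all genes were lower, and at an unadjusted p under 0.05 there were 10 higher and 1 lower. The 5 are all enzymes: Hmgcs1 of the mevalonate steps, and Sqle, Cyp51, Msmo1 and Sc5d of the later steps. The median log2 change of the 31 was 0.19, against -0.02 over all genes tested. Both H3.3K27M libraries lay above both Cbfa2t2_KO libraries in 14 genes, where 26.7% of all genes tested did, and below in 6, where 31.5% did.

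Msmo1 had the largest of these differences. Its level was 20.5 and 24.9 FPKM in H3.3K27M, against 8.89 and 6.38 FPKM in Cbfa2t2_KO, a log2 difference of 1.47 ± 0.27, adjusted p = 0.021 and a ratio of means of 2.97. Hmgcs1 was measured at 47.9 and 50.3 FPKM in H3.3K27M, against 26.96 and 16.1 FPKM in Cbfa2t2_KO, a difference of 1.20 ± 0.22, adjusted p = 0.021, and the lower Cbfa2t2_KO library lay nearer to H3.3WT than to H3.3K27M. Cyp51 was measured at 84.9 and 91.7 FPKM in H3.3K27M, against 48.3 and 39.0 FPKM in Cbfa2t2_KO, a difference of 1.01 ± 0.17, adjusted p = 0.017. In each of these 3 genes the H3.3K27M libraries lay close together and far above Cbfa2t2_KO. Sqle had 49.9 and 43.6 FPKM in H3.3K27M, against 27.2 and 23.6 FPKM in Cbfa2t2_KO (0.86 ± 0.15, adjusted p = 0.019), and Sc5d had 7.78 and 7.71 FPKM in H3.3K27M, against 4.83 and 3.37 FPKM in Cbfa2t2_KO (0.79 ± 0.20, adjusted p = 0.048). Of these 5 genes, Sqle, Msmo1 and Sc5d were at about the H3.3WT level in Cbfa2t2_KO, with libraries of the 2 groups that overlapped.

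These differences rest on few libraries. With any library of either line left out, fewer of all genes tested passed as well. The log2 differences in these fits were 1.25 to 1.68 for Msmo1, 0.84 to 1.55 for Hmgcs1 and 0.86 to 1.16 for Cyp51. They were 0.76 to 0.96 for Sqle and 0.58 to 1.00 for Sc5d. Without Cbfa2t2_KO replicate 2, 0 genes were higher, without H3.3K27M replicate 2 there was 1, and without Cbfa2t2_KO replicate 1 there were 3. Without H3.3K27M replicate 1 there were 4 higher and 1 lower. The call did not hold for Msmo1 without Cbfa2t2_KO replicate 2 (adjusted p = 0.162) or H3.3K27M replicate 2 (adjusted p = 0.089), for Hmgcs1 without Cbfa2t2_KO replicate 2 (adjusted p = 0.146) or H3.3K27M replicate 2 (adjusted p = 0.081) and for Cyp51 without Cbfa2t2_KO replicate 2 (adjusted p = 0.154) or H3.3K27M replicate 2 (adjusted p = 0.064). It did not hold for Sqle without Cbfa2t2_KO replicate 1 (adjusted p = 0.055) or Cbfa2t2_KO replicate 2 (adjusted p = 0.170), nor for Sc5d without each of the 4 libraries in turn (adjusted p = 0.066 to 0.294). The Sc5d call also failed with a pseudocount of 0.1, with no filter and in the fit of the 4 libraries of both groups (adjusted p = 0.053 to 0.061). With each library's trend on exon number, length and GC content removed, an alternative chosen after seeing the data, 8 genes were higher and 1 lower. In that fit, 5.45% of all genes tested were higher and 6.64% lower. In the other 26 genes the difference did not pass, which does not show that the lines are alike: Nsdhl had 0.62 ± 0.17, adjusted p = 0.055, Stard4 0.68 ± 0.19, adjusted p = 0.062 and Insig2 0.62 ± 0.18, adjusted p = 0.070.

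**Figure D4:**
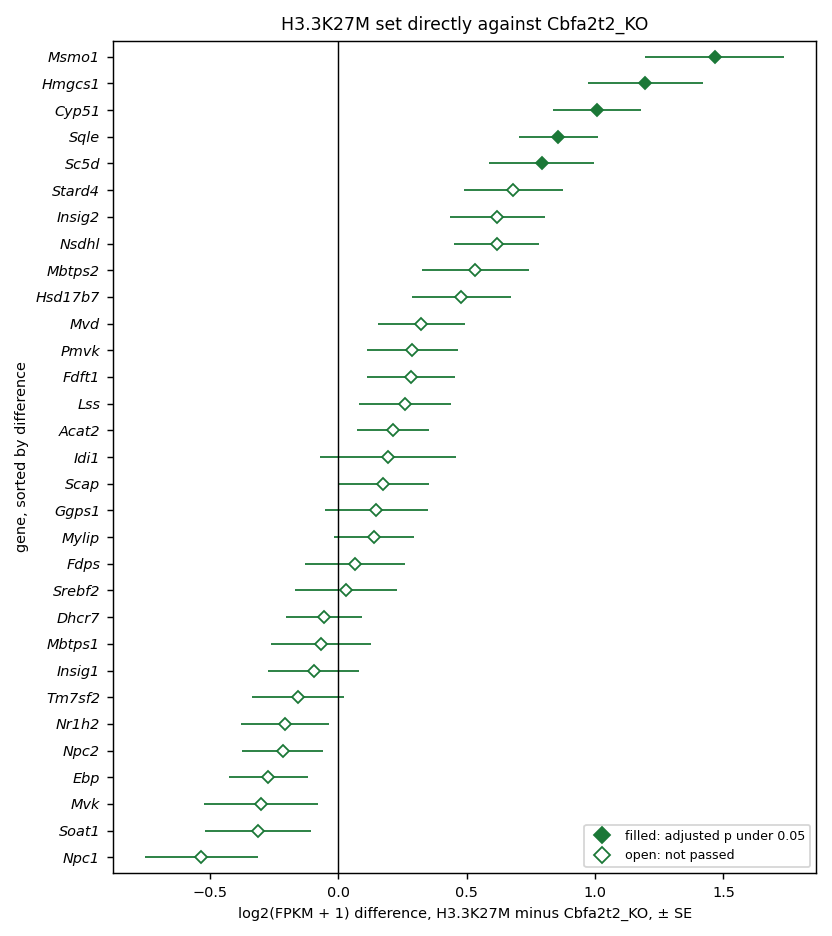
Log2 difference of H3.3K27M minus Cbfa2t2_KO for each of the 31 cholesterol genes on the horizontal axis, with bars of 1 SE, filled symbols for an adjusted p under 0.05 and genes in rows sorted by the difference. Msmo1 at 1.47, Hmgcs1 at 1.20, Cyp51 at 1.01, Sqle at 0.86 and Sc5d at 0.79 are the genes that passed the test.

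In order of level, Srebf2 led in every group, with means of 127 FPKM in Cbfa2t2_KO, 132 FPKM in H3.3K27M and 107 FPKM in H3.3WT. Next came Fdps (76.7 FPKM) and Acat2 (61.2 FPKM) in Cbfa2t2_KO, Cyp51 (88.3 FPKM) and Fdps (80.7 FPKM) in H3.3K27M, and Fdps (36.4 FPKM) and Pmvk (33.9 FPKM) in H3.3WT. The ranges of Cyp51 and Fdps in H3.3K27M overlapped, as did those of Fdps and Pmvk in H3.3WT. The sum over all 31 genes was 836 and 821 FPKM in Cbfa2t2_KO and 998 and 963 FPKM in H3.3K27M, against 596 and 540 FPKM in H3.3WT.

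A further 67 genes around the pathway were read from lists made for this purpose. Of 8 other sterol synthesis genes, 2 rose and 0 fell in H3.3K27M by limma, with 0 lower at an unadjusted p under 0.05. All genes tested gave 8.42% rises and 17.8% falls there. In Cbfa2t2_KO, 3 of the 8 rose and 1 fell, where 13.1% of all genes tested rose and 21.5% fell. The one that fell was Cyb5b, a cytochrome of the outer mitochondrial membrane that passes electrons, at 12.5 and 9.40 FPKM in Cbfa2t2_KO, 32.05 and 27.7 FPKM in H3.3K27M and 27.7 and 28.1 FPKM in H3.3WT, where Cbfa2t2_KO stood below all other libraries (-1.29 ± 0.17, adjusted p = 0.0016). Acat1, the mitochondrial thiolase and counterpart of Acat2, had 14.3 and 14.3 FPKM in Cbfa2t2_KO, 9.16 and 9.85 FPKM in H3.3K27M and 7.23 and 7.93 FPKM in H3.3WT and rose in Cbfa2t2_KO (0.83 ± 0.15, adjusted p = 0.0057), while its change in H3.3K27M was 0.29 ± 0.18, adjusted p = 0.248. Among 12 genes of the side branches to dolichol, ubiquinone and protein prenylation, 1 rose and 3 fell in Cbfa2t2_KO, and 1 rose and 2 fell in H3.3K27M. The falls were 25% and 16.7% of the list, near the 21.5% and 17.8% of all genes tested that fell. Rises were 8.33% of it in each line, against 13.1% and 8.42% of all genes tested. The gene that rose in both was Rabggtb, a subunit of the transferase that prenylates Rab proteins, at 17.6 and 18.9 FPKM in Cbfa2t2_KO, 28.0 and 33.1 FPKM in H3.3K27M and 8.35 and 8.88 FPKM in H3.3WT. Pdss2, which helps build the ubiquinone tail, fell in both, at 1.64 and 1.06 FPKM in Cbfa2t2_KO, 1.82 and 1.50 FPKM in H3.3K27M and 3.24 and 3.80 FPKM in H3.3WT.

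Of 10 other genes of SREBP control, 2 rose in each line, and 6 fell in Cbfa2t2_KO and 4 in H3.3K27M. The rises were 20% of the list, against 13.1% of all genes tested in Cbfa2t2_KO and 8.42% in H3.3K27M. The falls were 60% and 40%, against 21.5% and 17.8% of all genes tested. Srebf1, which encodes the related factor SREBP1 of fatty acid synthesis, rose in both lines, at 45.7 and 48.4 FPKM in Cbfa2t2_KO, 40.5 and 32.9 FPKM in H3.3K27M and 21.9 and 16.4 FPKM in H3.3WT, with no overlap between either line and H3.3WT. Its log2 change was 1.27 ± 0.17, adjusted p = 0.0016 in Cbfa2t2_KO and 0.91 ± 0.20, adjusted p = 0.013 in H3.3K27M. Rnf145, a sterol-regulated ubiquitin ligase of the endoplasmic reticulum, was the other that rose in both (1.14 ± 0.14, adjusted p = 0.0013 in Cbfa2t2_KO and 1.01 ± 0.16, adjusted p = 0.0046 in H3.3K27M). Rnf139, another ubiquitin ligase there, fell in both (-1.28 ± 0.20, adjusted p = 0.0029 in Cbfa2t2_KO and -0.62 ± 0.19, adjusted p = 0.043 in H3.3K27M). So did Paqr3, which holds SCAP and SREBP at the Golgi (-0.80 ± 0.22, adjusted p = 0.027 in Cbfa2t2_KO and -1.03 ± 0.21, adjusted p = 0.011 in H3.3K27M).

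Among 11 tested genes of lipoprotein uptake and sterol traffic, 1 rose and 0 fell in Cbfa2t2_KO, and 2 rose and 1 fell in H3.3K27M by limma. At an unadjusted p under 0.05, 0 were lower in Cbfa2t2_KO as well. Rises made up 9.09% of the list in Cbfa2t2_KO and 18.2% in H3.3K27M, against 13.1% and 8.42% of all genes tested. Falls made up 0% and 9.09%, against 21.5% and 17.8% of all genes tested. Gramd1a, which carries cholesterol from the plasma membrane inward, rose in both lines (0.58 ± 0.19, adjusted p = 0.049 in Cbfa2t2_KO and 0.64 ± 0.19, adjusted p = 0.037 in H3.3K27M). Among 8 tested genes of LXR, efflux and oxysterols, 1 rose and 3 fell in each line, 12.5% and 37.5% of them. Over all genes tested, 13.1% rose and 21.5% fell in Cbfa2t2_KO, and 8.42% rose and 17.8% fell in H3.3K27M. Those that fell in both were Rxra and Rxrb, the retinoid receptors that pair with LXR, and Abcg4, a sterol exporter. Rxra stood at 8.28 and 8.06 FPKM in Cbfa2t2_KO, 6.16 and 4.82 FPKM in H3.3K27M and 12.6 and 13.1 FPKM in H3.3WT, with both lines below H3.3WT. Rxrb changed by -0.52 ± 0.15, adjusted p = 0.034 in Cbfa2t2_KO and by -0.87 ± 0.16, adjusted p = 0.0073 in H3.3K27M. Abcg4 stood at 0.582 and 0.535 FPKM in Cbfa2t2_KO, 0.634 and 0.510 FPKM in H3.3K27M and 3.12 and 2.15 FPKM in H3.3WT, again with both lines below.

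By limma, 6 of the 10 fatty acid genes known as targets of SREBP1 rose in Cbfa2t2_KO and 7 rose in H3.3K27M. These were 60% and 70% of the list, where 13.1% and 8.42% of all genes tested rose and 21.5% and 17.8% fell. In either line 0 of the 10 fell, also at an unadjusted p under 0.05. Their median log2 change was 0.65 in Cbfa2t2_KO and 0.69 in H3.3K27M, against -0.11 and -0.12 over all genes. Scd2, a desaturase, was the most abundant, at 301 and 247 FPKM in Cbfa2t2_KO, 314 and 248 FPKM in H3.3K27M and 123 and 108 FPKM in H3.3WT. Scd2 was above H3.3WT in every library of both lines (1.24 ± 0.15, adjusted p = 0.0014 in Cbfa2t2_KO and 1.27 ± 0.19, adjusted p = 0.0035 in H3.3K27M). Acly, which supplies acetyl-CoA to both pathways, Scd1, Fads1 and Fads2, further desaturases, also rose in both lines, by 0.91 ± 0.16, 0.73 ± 0.18, 0.88 ± 0.16 and 1.11 ± 0.25 in Cbfa2t2_KO and by 0.70 ± 0.21, 0.99 ± 0.19, 0.68 ± 0.19 and 0.89 ± 0.28 in H3.3K27M. Fasn, fatty acid synthase, rose in Cbfa2t2_KO (0.57 ± 0.16, adjusted p = 0.028) and had -0.03 ± 0.31, adjusted p = 0.947 in H3.3K27M, where its libraries stood at 122 and 59.3 FPKM.

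**Figure D5:**
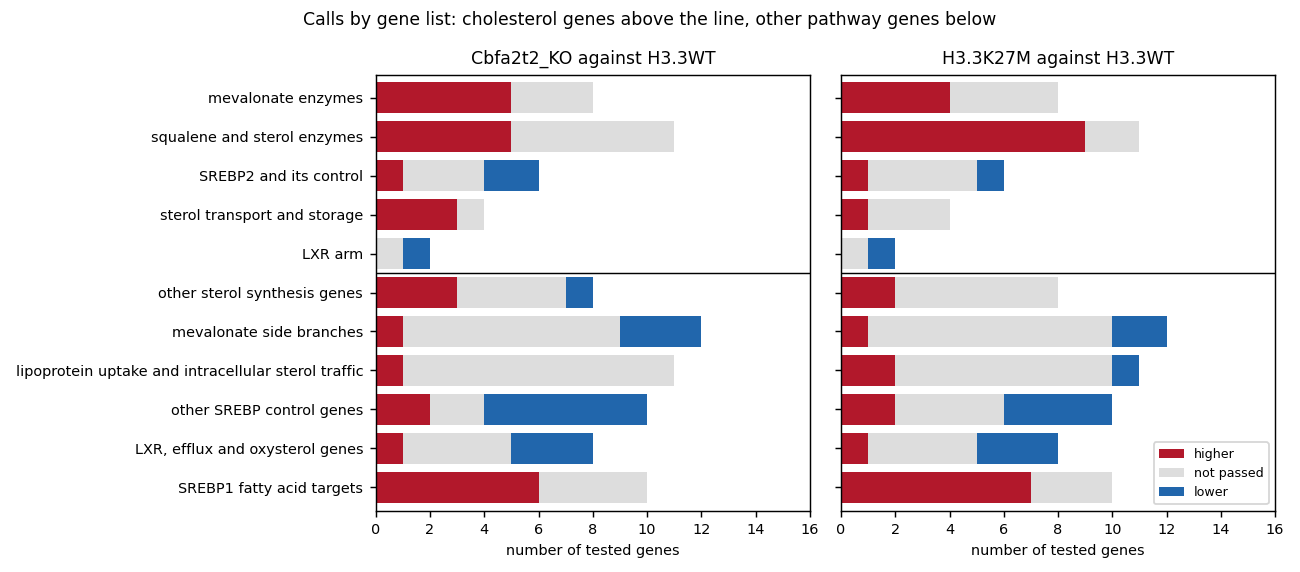
Number of genes that rose or fell against H3.3WT in each list of cholesterol and related genes, with Cbfa2t2_KO and H3.3K27M in separate panels and the length of a bar giving the number tested. Rises are most frequent in the enzyme lists (5 of 8 and 5 of 11 in Cbfa2t2_KO, 4 of 8 and 9 of 11 in H3.3K27M), the sterol transport genes of Cbfa2t2_KO (3 of 4) and the SREBP1 fatty acid targets, while 6 and 4 of 10 other SREBP control genes fell. Over all genes tested, 13.1% rose and 21.5% fell in Cbfa2t2_KO, and 8.42% rose and 17.8% fell in H3.3K27M.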

How the data were processed

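The authors deposited FPKM per gene in 2 tables, and each holds H3.3WT beside 1 of the other groups. The submitters' processing notes name the build GRCm38 and the tools HISAT2, StringTie, Trim Galore and DESeq. Versions, the annotation release and strandedness are not given in the sources used here. Per the labels' protocols, poly(A) mRNA was isolated with oligo(dT) and converted to cDNA from random primers. Each listed gene had 0.500 FPKM or more in some library of its table, and lower genes are missing. FPKM values of low genes were compared between libraries for steps of whole reads. At the best scaling, at most 15.1% of ratios lay within 1% of a ratio of small whole numbers. The median over scalings for that pair of libraries was 12.5%. Depth was therefore not recovered, and no counting interval or floor is given.

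Genes were matched by symbol and Ensembl ID, and coordinates come from GENCODE vM21 (GRCm38). Genes whose mean reached 1 FPKM over the libraries compared were fitted on log2(FPKM + 1) by limma 3.58.1 (R 4.3.3, eBayes with trend), with p-values adjusted by the Benjamini-Hochberg method at 0.05. The fits against H3.3WT used the 4 libraries compared, and the fit between the lines used all 6. The procedure was tested on simulated data. Near-identical transcripts were sought with BLAST 2.17.0, and promoter windows are from RefSeq. Python 3.11.15 and matplotlib 3.10.9 made the figures.

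The genes and lists were chosen with earlier results of these data known. Values of every library are given for each cholesterol gene past the threshold in any comparison, and by range for others. Related genes are named mainly where they passed in both lines in the same direction, and the few others after their values were seen. Promoters were to be printed for genes with the sterol core, of which 1 was found. Alternatives were a pseudocount of 0.1, no filter, a filter of 5 FPKM, quantile normalization, median-of-ratios scaling, robust eBayes, eBayes without trend, the other set of libraries in the fit, and leaving out each library. Removal of each library's trend on exon number, length and GC content was chosen after seeing the data.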

Additional observations from a re-analysis of the deposited data

Results flagged for a closer look

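Of the cholesterol genes, 5 differed between the changes of the 2 lines against H3.3WT, by the direct test of H3.3K27M against Cbfa2t2_KO with limma. Msmo1, the methylsterol oxidase, was higher in H3.3K27M by 1.47 ± 0.27 on the log2 scale (adjusted p = 0.021). Hmgcs1, HMG-CoA synthase, was higher by 1.20 ± 0.22 (adjusted p = 0.021). Cyp51, lanosterol demethylase, was higher by 1.01 ± 0.17 (adjusted p = 0.017). Sqle, squalene epoxidase, was higher by 0.86 ± 0.15 (adjusted p = 0.019). Sc5d, the sterol desaturase, was higher by 0.79 ± 0.20 (adjusted p = 0.048). In each of these genes both H3.3K27M libraries lay above both Cbfa2t2_KO libraries. None of the 31 genes, these 5 included, lay above H3.3WT in every library of a line and below it in every library of the other.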

How the results depend on the processing

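Under 13 alternatives for each comparison no called gene changed sign. In Cbfa2t2_KO against H3.3WT, 8 of 17 genes kept their call under every alternative in which they were tested. These were Acat2, Mvd, Fdps, Fdft1, Ebp, Dhcr7, Insig1 and Mbtps1. In H3.3K27M against H3.3WT, 7 of 17 did (Acat2, Hmgcs1, Mvd, Cyp51, Msmo1, Nsdhl and Stard4). Between the lines, 0 of 5 did. With no library left out the call held, where tested, for 15 of 17, 16 of 17 and 4 of 5. At the filter of 5 FPKM, Stard4 was not tested in either comparison with H3.3WT, nor was Mbtps2 in Cbfa2t2_KO. Median-of-ratios scaling and quantile normalization moved the genes' median change to 0.52 and 0.51 in Cbfa2t2_KO and to 0.73 and 0.75 in H3.3K27M, and the pseudocount of 0.1 moved it to 0.65 in H3.3K27M. Between the lines, removing the trend on exon number, length and GC content, chosen after seeing the data, gave 1401 genes past the threshold with 8 cholesterol genes higher and 1 lower, and the fit of 4 libraries gave 554 genes. Leaving out 1 library left 1915 to 3038 genes in Cbfa2t2_KO, with 8 to 11 cholesterol genes higher, 2 to 3 lower and a median of 0.29 to 0.40. It left 1007 to 2790 genes in H3.3K27M, with 8 to 14 higher, 0 to 2 lower and a median of 0.56 to 0.64, and 29 to 786 genes between the lines, with 0 to 4 higher and 0 to 1 lower. A left-out library leaves 1 in its group, which is then assumed to vary like the others.

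Values that passed no test changed sign as follows. In Cbfa2t2_KO against H3.3WT, median-of-ratios scaling gave 0.11 for Sqle and 0.070 for Hsd17b7, quantile normalization 0.11 for Sqle, 0.089 for Hsd17b7 and 0.020 for Insig2, and the trend removal 0.073 for Hsd17b7 and 0.095 for Sc5d. In H3.3K27M against H3.3WT the same settings gave 0.069, 0.12 and 0.098 for Scap, and 0.035, 0.057 and 0.030 for Mylip. Between the lines, quantile normalization and trend removal gave 0.0019 and 0.051 for Mbtps1 and 0.0094 and 0.072 for Dhcr7, and trend removal gave -0.16 for Ggps1, -0.10 for Idi1 and 0.032 for Nr1h2. The cause was not tested. Leaving out 1 library gave, in Cbfa2t2_KO, -0.14 to 0.12 for Hsd17b7, -0.25 to 0.022 for Insig2, -0.28 to 0.54 for Msmo1, -0.37 to 0.051 for Sc5d and -0.12 to 0.079 for Sqle. In H3.3K27M it gave -0.14 to 0.054 for Mylip, -0.54 to 0.071 for Npc1, -0.25 to 0.10 for Scap and -0.028 to 0.20 for Tm7sf2. Between the lines it gave -0.12 to 0.0081 for Dhcr7, -0.061 to 0.19 for Fdps, -0.038 to 0.34 for Ggps1, -0.14 to 0.52 for Idi1, -0.24 to 0.051 for Insig1, -0.33 to 0.20 for Mbtps1 and -0.20 to 0.26 for Srebf2. No paired analysis was possible because the labels give no replicate numbers that pair libraries across groups. Read depth is unknown and the tables list no gene that is low in all their libraries, so small differences of low genes were not detectable.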
